A study of Bos taurus with 4 samples.

Results

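Genes of the cell cycle and of DNA replication were followed in bovine intramuscular preadipocytes, the precursors of the fat cells that lie between muscle fibres. The set holds 54 genes chosen by name: 20 of mitosis, 19 of S phase, 7 cyclins, 5 inhibitors of cyclin-dependent kinases (CDKs) and 3 transcription factors. A probe belonged to it when its gene name in the array files was one of the 54 names. Of these genes 50 had a probe, with 108 of the 43653 probes on the array. No probe was named TOP2A, CENPA, MKI67 or MCM2, and these genes were not analysed here. The probes shown for KIF11, CDC6 and E2F1 were too dim for the test, which left 47 members among 17706 genes tested.

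Cells divide through a cycle in which DNA is copied in S phase and shared out in mitosis. Cyclins bind and activate CDKs, the inhibitors hold these kinases back, and the E2F, MYB and FOXM1 factors drive the genes of S phase and mitosis. Preadipocytes grow to confluence in culture, and differentiation into fat cells, which adipogenic medium starts, ends in cells that no longer divide.

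RNA came from 4 groups of cells. Day 0 cells were taken at the start, when confluent cultures were moved to adipogenic medium. Day 6 control cells had spent 6 days in that medium, which held 10% fetal bovine serum, octanoate at 5 mM and acetic acid at 10 mM, together with the hormones dexamethasone (0.25 μM) and insulin (50 ng/mL). The other two groups had the same 6 days with 1 μM ATRA (all-trans retinoic acid) or 1 μM 9cRA (9-cis retinoic acid), 2 forms of the vitamin A acid that differ in the geometry of 1 double bond. Each group is 1 sample in the labels with 3 arrays (n = 3 throughout), with no label that ties an array to a culture of its own. The p-values therefore rest on array-to-array spread alone, and that spread may be technical.

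Signals are log2 values relative to the 75th percentile of the array, so 0 is that percentile and a difference of 1 is 2-fold. Between 64.8% and 74.0% of probe spots were well above background on an array, lowest on day 6 control array 1. All 10 stromal preadipocyte markers listed were well above background, among them PDGFRA, THY1 and DCN. The endothelial marker PECAM1, the immune markers CD163 and CD3E, the pericyte marker RGS5, the muscle precursor marker MYF5 and the adipocyte marker ADIPOQ were above it on 0 of 12 arrays. Other markers of the same cell types were above it on 12 of 12 arrays: VWF and TEK (endothelial), PTPRC, CD14, CD68 and CD79A (immune), CSPG4, ACTA2, CNN1 and DES (smooth muscle and pericyte), MYOD1, MYOG, CKM and ACTA1 (skeletal muscle), and FABP4 and CIDEC (adipocyte). Smooth muscle and pericyte markers moved in the same direction as most members. The summed scaled signal of their 6 probes was 320 to 327 on the day 0 arrays, 149 to 167 in the day 6 controls, 27.8 to 28.0 with ATRA and 29.3 to 32.1 with 9cRA, and 4 of the 6 were tested. Immune markers (5 of 7 tested) summed to 2.31 to 2.63, 1.81 to 2.74, 4.90 to 5.02 and 4.59 to 5.11 in the same order. The endothelial markers (4 of 6 tested) summed to 0.155 to 0.178, 0.194 to 0.271, 0.491 to 0.577 and 0.421 to 0.548. The adipocyte markers (3 of 5 tested) summed to 4.02 to 4.17, 69.8 to 87.4, 2.52 to 2.65 and 2.76 to 3.65. The skeletal muscle markers (5 of 7 tested) summed to 6.12 to 6.55, 4.46 to 5.77, 3.37 to 3.62 and 3.51 to 3.81. Single genes did not all follow these sums. In culture FABP4 was called higher and CIDEC lower, and PLIN1 was not called (median -0.30). With each retinoid against day 0, MYOD1, MYOG and MYH3 were called higher and ACTA1 lower, and CKM was not called. The muscle medians there were 0.43 with ATRA and 0.46 with 9cRA. The part of these cell type signals in the results below was not tested. In RNA from a whole culture, fewer dividing cells and less RNA per cell cannot be told apart.

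The probes themselves are 60 bases long. Of the 108, 8 are printed here because they carry the main patterns below: an RRM2, a CCNA2, a CCNB2, an AURKB, an MCM5 and a UBE2C probe whose signal fell, an MCM7 probe whose signal rose in culture, and the 1 MCM4 probe that departed from its fellows. Positions are those in the array files, on build UMD3.1. CCNB2 (chr10:51260900-51261510, minus strand), UBE2C (chr13:75309411-75309967, plus strand) and MCM5 (chr5:74001438-74001821, plus strand) cover 611, 557 and 384 bases of genome with their 60 bases, so these probes join separate stretches. The others are unbroken: RRM2 at chr11:87468694-87468753 (minus), CCNA2 at chr6:3417181-3417240 (plus), AURKB at chr19:28450040-28450099 (minus), MCM7 at chr25:36889636-36889695 (plus) and MCM4 at chr14:21190387-21190446 (plus). They were chosen after their values were seen.
RRM2: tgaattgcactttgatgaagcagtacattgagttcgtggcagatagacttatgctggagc
CCNA2: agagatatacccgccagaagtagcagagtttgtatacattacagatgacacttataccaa
CCNB2: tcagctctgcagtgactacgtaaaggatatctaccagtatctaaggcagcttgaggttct
AURKB: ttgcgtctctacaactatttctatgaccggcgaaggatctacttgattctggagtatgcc
UBE2C: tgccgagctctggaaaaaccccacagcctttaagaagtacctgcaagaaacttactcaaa
MCM5: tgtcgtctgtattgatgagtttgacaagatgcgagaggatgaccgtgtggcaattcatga
MCM7: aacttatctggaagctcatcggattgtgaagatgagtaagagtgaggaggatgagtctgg
MCM4: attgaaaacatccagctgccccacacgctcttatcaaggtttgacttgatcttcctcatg

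After 6 days in adipogenic medium most members were lower than at day 0. Of 47 members tested, 34 fell, 3 rose and 10 did not pass the test (limma, Benjamini-Hochberg adjusted p under 0.05 over 17706 genes), with a median of -0.51. Over all genes tested 62.4% were called, 31.3% lower and 31.1% higher, with a median of 0.01. The genes of mitosis fell furthest: 15 of 16 were lower, with a median of -1.13, and 9 of them fell by at least 2-fold, as did 5.79% of all genes. In S phase 11 of 17 fell and 1 rose, with a median of -0.20, and none fell by 2-fold.

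With the retinoids most members were lower than in the day 6 controls. With ATRA 28 of 47 fell, 3 rose and 16 were not called (46.2% of all genes called, 22.4% lower and 23.8% higher), with a median of -0.44 against 0.05 over all genes. With 9cRA 28 fell, 4 rose and 15 were not called (46.5% of all genes called, 21.7% lower and 24.7% higher), with a median of -0.47 against 0.06. Both comparisons use the same day 6 control arrays. Against day 0, 37 members were lower and 3 higher with ATRA (71.5% of all genes called, 32.7% lower and 38.7% higher), and 39 were lower and 4 higher with 9cRA (71.3% called, 32.3% lower and 39% higher).

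The arrays lay on 3 slides of 4, and no slide held all groups. All day 0 arrays were on slide 1, with day 6 control array 1. ATRA arrays 1 and 2 shared slide 2 with day 6 control arrays 2 and 3, and ATRA array 3 shared slide 3 with all 9cRA arrays. With the slide as a fixed block, 30 members were lower at day 6 than at day 0, 26 with ATRA than in the day 6 controls and 19 with 9cRA than in the day 6 controls. Of all 17706 genes, 4988, 3527 and 2263 were lower with that block, against 5545, 3964 and 3851 without it. The 9cRA count rests on a chain of slides, since no slide held both 9cRA and day 6 control arrays. With that block 13 members lost their call with 9cRA: AURKA, BIRC5, BUB1B, CCNB1, CCND3, GMNN, KIF20A, KIF23, MCM6, MCM7, POLA1, TPX2 and UBE2C. PCNA and POLA1 lost it with ATRA, and CDC20, FEN1, KIF23, MCM5 and MCM6 in culture. No slide held both day 0 and retinoid arrays. Against day 0, 4 members lost their call with ATRA (CDC20, KIF23, POLA1 and RRM1). With 9cRA 11 did: CDC20, CDC45, CDKN1B, CDKN2C, GMNN, LIG1, MCM3, POLA1, PRIM1, RRM1 and TYMS. Of all genes 4428 with ATRA and 3686 with 9cRA were lower than at day 0 with that block, against 5797 and 5724 without it. Within slide 1 alone 30 members were lower at day 6, and within slide 2 alone 22 were lower and 1 higher with ATRA. Of all 17706 genes, 5168 were lower within slide 1, and 2789 were lower and 2510 higher within slide 2. Calls lost there were those of CDC45, FEN1, KIF23, MCM4 and MCM5 on slide 1, and of AURKA, BUB1B, KIF20A, LIG1, MCM7, PCNA, POLA1 and TPX2 on slide 2.

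**Figure D1:**
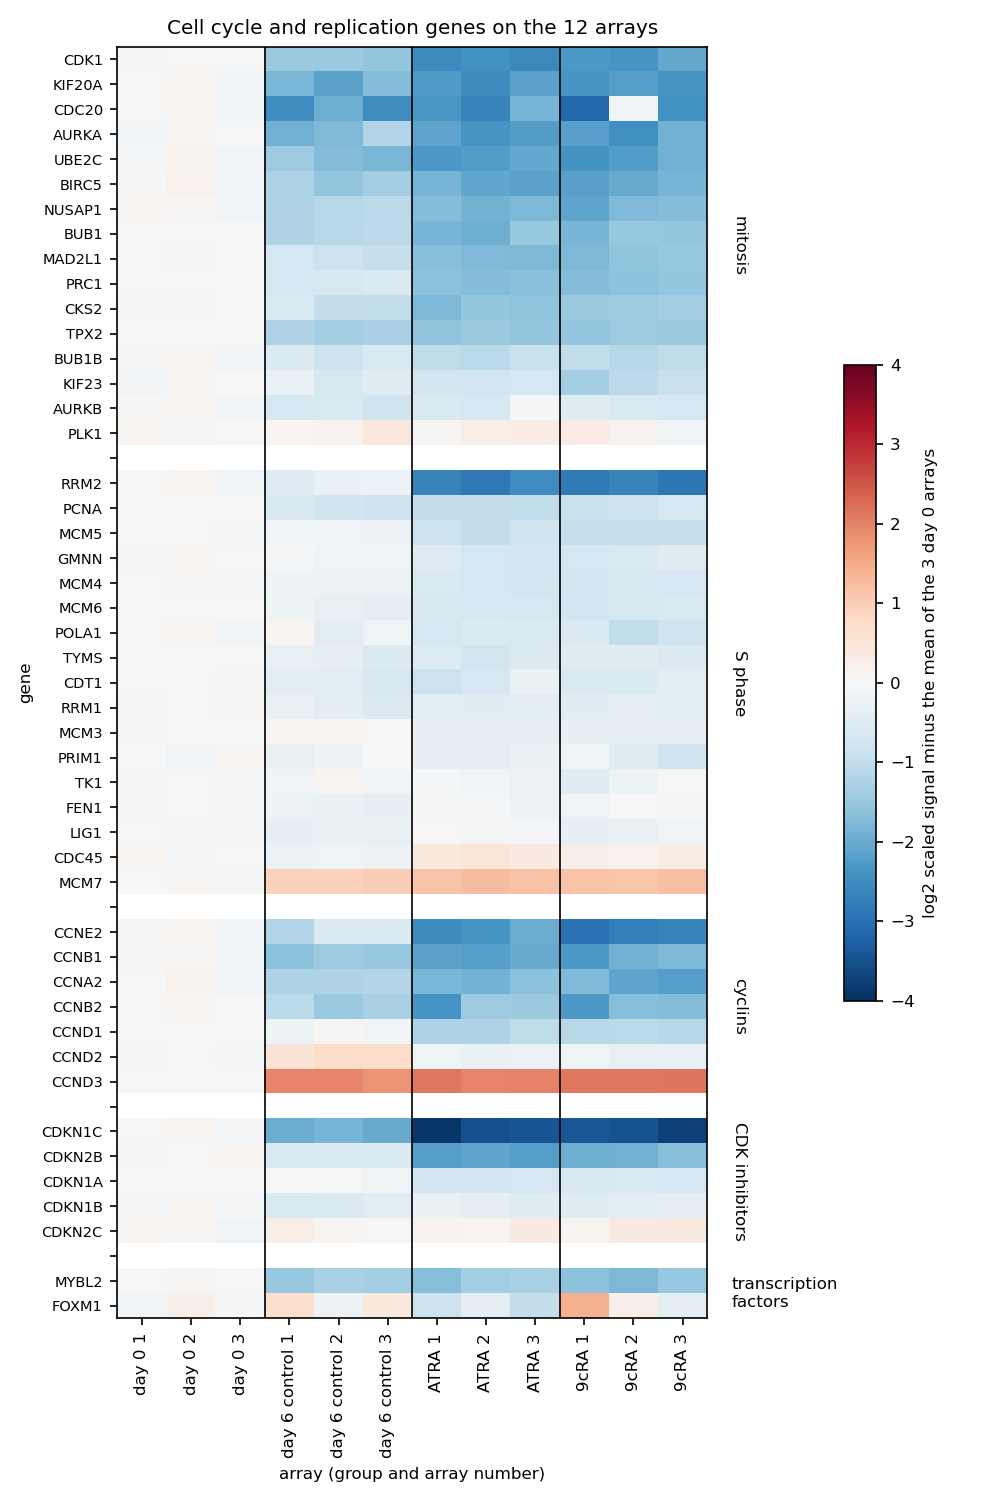
Each row is a tested member and each column 1 of the 12 arrays, and the colour is the log2 scaled signal minus the mean of the 3 day 0 arrays, from blue (lower) to red (higher). Mitosis genes are blue from day 6 on, with array medians of -1.20 to -1.07 in the day 6 controls and -1.84 to -1.54 with the retinoids, S phase genes are paler apart from RRM2, and MCM7 and CCND3 are red.

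The D-type cyclins, which link growth signals to the G1 kinases CDK4 and CDK6, did not move as a group. CCND1 read 3.72, 3.73 and 3.75 on the day 0 arrays, 3.53, 3.77 and 3.61 on the day 6 control arrays, 2.49, 2.51 and 2.70 with ATRA and 2.62, 2.65 and 2.58 with 9cRA. Its day 0 and day 6 arrays overlapped (difference -0.10 ± 0.07 (SE), adjusted p = 0.27), while all 6 retinoid arrays were about 1 unit below them. CCND1 fell by 1.07 ± 0.07 with ATRA (adjusted p = 9.2e-07) and by 1.02 ± 0.07 with 9cRA (adjusted p = 1.3e-06), relative to the day 6 control. CCND2 read 6.20, 6.17 and 6.07 at day 0, 6.68, 6.88 and 6.87 in the day 6 controls, 5.97, 5.88 and 5.93 with ATRA and 5.99, 5.84 and 5.85 with 9cRA. It rose in culture by 0.67 ± 0.07 (adjusted p = 1.2e-05), and the retinoid arrays lay below both other groups. Against the day 6 control CCND2 fell by 0.89 ± 0.07 with ATRA and by 0.92 ± 0.07 with 9cRA (adjusted p = 2.7e-06 and 2.2e-06).

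CCND3 showed the largest rise among the members tested. It read 2.01, 2.03 and 1.98 at day 0, 3.95, 3.94 and 3.79 in the day 6 controls, 4.12, 3.94 and 3.99 with ATRA and 4.12, 4.10 and 4.13 with 9cRA. All 9 arrays from day 6 were above all 3 from day 0, a rise of 1.89 ± 0.06 or 3.71-fold in the day 6 control (adjusted p = 2e-09). With 9cRA a further 0.22 ± 0.06 was called (adjusted p = 0.014), but not under scaling to the array median (0.16), with the slide as a fixed block (0.29) or as a mean over its 2 probes (0.07). The other CCND3 probe rose by 1.21 in culture and stood 0.30 lower with ATRA than in the day 6 control.

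The 4 member cyclins of S phase and mitosis all fell in culture. CCNE2, a partner of CDK2 at the start of S phase, read -5.02, -4.99 and -5.19 at day 0 and -6.25, -5.61 and -5.63 in the day 6 controls. With ATRA it read -7.60, -7.43 and -7.07 and with 9cRA -8.03, -7.85 and -7.75, and on none of these 6 arrays was it well above background. On this probe CCNE2 was therefore at least 1.69-fold lower with ATRA and at least 1.52-fold lower with 9cRA than at day 0. The adjusted p there (1.1e-06 and 2.5e-07) came from readings not well above background, not from these bounds. In the day 6 control CCNE2 fell by 0.76 ± 0.18 (adjusted p = 0.0041). The other CCNE2 probe fell in culture (-1.52). It was not called with either retinoid against the day 6 control (0.02 and -0.64, adjusted p = 0.98 and 0.32 over all probes). On ATRA array 3 that probe read -5.72, against a day 0 mean of -5.70. CCNA2, which serves S phase and the entry into mitosis, read -3.24, -3.13 and -3.45, then -4.50, -4.47 and -4.45, then -5.09, -5.17 and -4.90 with ATRA and -5.04, -5.38 and -5.47 with 9cRA. On this probe the 4 groups formed 3 steps, with the retinoid groups overlapping at the lowest. It was well above background on only 1 9cRA array. CCNA2 fell by 1.20 ± 0.12 in culture (adjusted p = 9.5e-06), then by 0.58 ± 0.12 with ATRA (adjusted p = 0.0027) and 0.82 ± 0.12 with 9cRA (adjusted p = 0.0003). The CCNA2 probe printed above was well above background on the day 0 arrays only, at least 2.33-fold higher there than in the day 6 controls. It was not called with either retinoid against the day 6 control (-0.17 and -0.26, adjusted p = 0.53 and 0.33 over all probes).

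The B-type cyclins, partners of CDK1 in mitosis, behaved alike in culture. CCNB1 read -2.47, -2.45 and -2.63 at day 0, -4.14, -3.97 and -4.02 in the day 6 controls, -4.64, -4.72 and -4.53 with ATRA and -4.80, -4.42 and -4.32 with 9cRA. It fell by 1.53 ± 0.12 in culture (adjusted p = 1.2e-06), and by a further 0.59 ± 0.12 with ATRA and 0.47 ± 0.12 with 9cRA (adjusted p = 0.0019 and 0.0073). CCNB2 read -3.34, -3.24 and -3.34, then -4.40, -4.80 and -4.62, then -5.68, -4.75 and -4.79 with ATRA and -5.61, -5.02 and -5.06 with 9cRA. Its fall of 1.30 ± 0.24 in culture was called (adjusted p = 0.00086). In each retinoid group 1 CCNB2 array lay well below the other two, and differences of -0.47 ± 0.24 (adjusted p = 0.14) and -0.62 ± 0.24 (adjusted p = 0.058) from the day 6 control were not called. Under normexp background correction the calls of CCNA2 (-0.17) and CCNE2 (-0.14) with ATRA against the day 6 control were lost. These calls of CCNA2 and CCNE2 were also lost as a mean over the probes of a gene. With the slide as a fixed block that of CCNB1 with 9cRA (-0.67) was lost.

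Of the 5 CDK inhibitors, which brake the kinases, 3 (60%) fell in culture: CDKN1B, CDKN1C and CDKN2B. With each retinoid against the day 6 control 3 (60%) fell: CDKN1A, CDKN1C and CDKN2B. Of all genes 31.3% fell in culture, 22.4% with ATRA and 21.7% with 9cRA. CDKN2C rose in some comparisons on 1 or both of its probes. CDKN1C, which encodes p57, gave the deepest fall from day 0 to the retinoid groups among the members tested, each on its shown probe. Other probes of RRM2 (-3.95 with ATRA) and AURKB (-3.68 with 9cRA) fell further. CDKN1C read -1.64, -1.54 and -1.73 at day 0, -3.63, -3.49 and -3.65 in the day 6 controls, -5.54, -5.17 and -5.08 with ATRA and -5.06, -5.11 and -5.39 with 9cRA. No array overlapped between day 0, day 6 control and retinoid groups. The fall was 1.95 ± 0.12 in culture (adjusted p = 3.1e-07) and a further 1.67 ± 0.12 with ATRA and 1.60 ± 0.12 with 9cRA (adjusted p = 2e-06 and 3.1e-06), and from day 0 it reached 12.4-fold and 11.7-fold. CDKN2B, which encodes p15 and restrains CDK4 and CDK6, read 2.14, 2.18 and 2.30, then 1.60, 1.65 and 1.62, then 0.01, 0.09 and 0.02 with ATRA and 0.25, 0.29 and 0.50 with 9cRA. Its step in culture was small (-0.58 ± 0.07, adjusted p = 3.1e-05) and the step to the retinoids larger, -1.59 ± 0.07 with ATRA and -1.28 ± 0.07 with 9cRA (adjusted p = 3.7e-08 and 1.8e-07).

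CDKN1A, the p21 gene, read 5.68, 5.69 and 5.71 at day 0, 5.70, 5.70 and 5.57 in the day 6 controls, 4.95, 4.92 and 5.04 with ATRA and 5.05, 5.08 and 5.04 with 9cRA. Day 0 and day 6 control arrays overlapped, and the 6 retinoid arrays lay below them: CDKN1A fell by 0.68 ± 0.05 with ATRA and by 0.60 ± 0.05 with 9cRA (adjusted p = 1.8e-06 and 5.7e-06). Its second probe fell too, by 0.63 and 0.56. CDKN1B, the p27 gene, read 1.78, 1.92 and 1.78, then 1.22, 1.29 and 1.41, then 1.55, 1.47 and 1.34 with ATRA and 1.36, 1.40 and 1.47 with 9cRA. It fell by 0.52 ± 0.07 in culture (adjusted p = 0.00011), and the retinoid arrays overlapped the day 6 control (0.15 ± 0.07 and 0.10 ± 0.07, adjusted p = 0.12 and 0.26). CDKN2C, the p18 gene, read 1.41, 1.36 and 1.16, then 1.58, 1.38 and 1.28, then 1.46, 1.42 and 1.67 with ATRA and 1.42, 1.66 and 1.66 with 9cRA. These CDKN2C arrays overlapped from day 0 to day 6 (0.10 ± 0.11, adjusted p = 0.43). The rise with 9cRA from day 0 (0.27 ± 0.11, adjusted p = 0.044) was lost without day 0 array 2 or 3 or 9cRA array 2 or 3 (0.20 to 0.30), and also under array median scaling (0.14) and either slide block (0.29 and 0.28). The other CDKN2C probe, A_73_P305581, read 0.10, 0.09 and 0.00 at day 0, 0.49, 0.24 and 0.32 in the day 6 controls, 0.36, 0.40 and 0.42 with ATRA and 0.51, 0.72 and 0.75 with 9cRA. All its later arrays lay above day 0: it rose by 0.29 ± 0.08 in culture (adjusted p = 0.0092 over all probes), and with 9cRA by 0.31 ± 0.08 against the day 6 control and 0.60 ± 0.08 against day 0 (adjusted p = 0.0094 and 6.2e-05). With ATRA it rose by 0.33 ± 0.08 against day 0 (adjusted p = 0.0034), and 0.04 ± 0.08 against the day 6 control was not called.

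**Figure D2:**
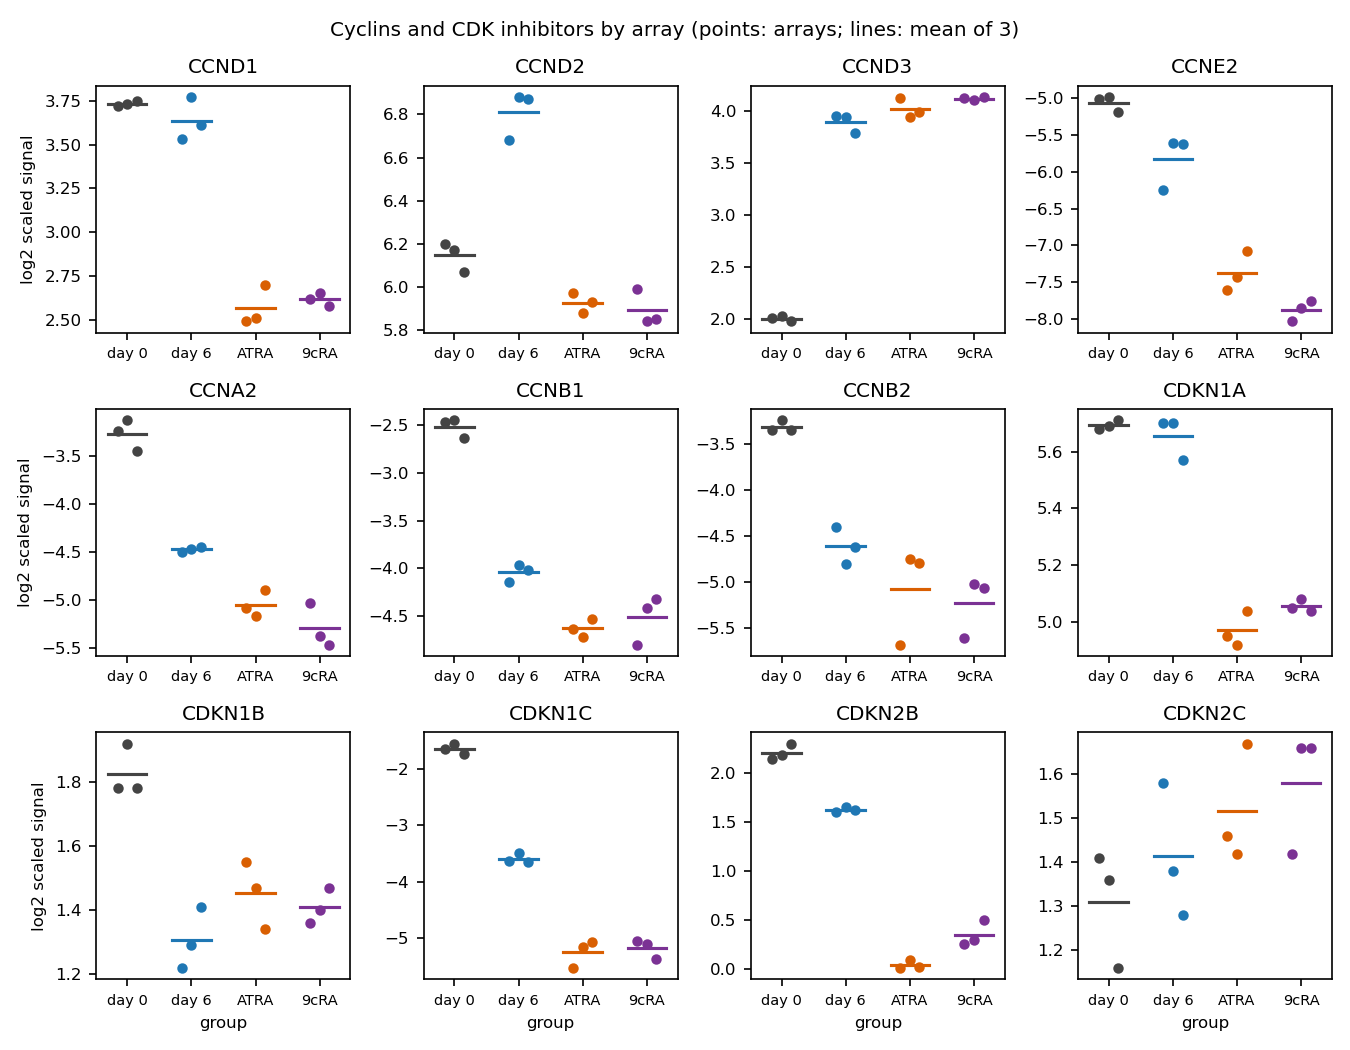
Each panel is 1 cyclin or CDK inhibitor, each point the log2 scaled signal on 1 array, and each line the mean of the 3 arrays of a group; the vertical scales differ between panels. CCND3 steps up from about 2.01 to 3.95 on the first array of day 0 and day 6 control, CCND1 and CDKN1A step down only with the retinoids, and CDKN1C steps down in culture and again with the retinoids.

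Mitosis genes fell in culture with 1 exception among the 16 tested. TPX2, a spindle assembly factor that activates AURKA, read 1.08, 1.09 and 1.08 at day 0, -0.11, -0.28 and -0.21 in the day 6 controls, -0.52, -0.42 and -0.49 with ATRA and -0.50, -0.38 and -0.41 with 9cRA. CDK1, the kinase that drives mitosis, read -2.54, -2.59 and -2.61, then -4.06, -4.07 and -4.16, then -5.14, -5.00 and -5.16 with ATRA and -4.89, -4.94 and -4.63 with 9cRA. Both genes separated day 0, day 6 control and retinoid arrays without overlap. The fall in culture was 1.28 ± 0.05 for TPX2 (adjusted p = 1.6e-08) and 1.52 ± 0.08, or 2.86-fold, for CDK1 (adjusted p = 8.1e-08). With ATRA the further fall was 0.28 ± 0.05 for TPX2 and 1.01 ± 0.08 for CDK1 (adjusted p = 0.0021 and 3.6e-06), and with 9cRA 0.23 ± 0.05 and 0.73 ± 0.08 (adjusted p = 0.0068 and 4.3e-05). All 4 TPX2 probes fell in culture, by 0.91 to 1.28, whereas with ATRA they differed from the day 6 control by only -0.28 to -0.05.

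KIF20A, a kinesin of cytokinesis, read -2.34, -2.23 and -2.47 at day 0, -4.18, -4.50 and -4.09 in the day 6 controls, -4.63, -4.87 and -4.49 with ATRA and -4.72, -4.54 and -4.71 with 9cRA. UBE2C, the ubiquitin-conjugating enzyme of the anaphase-promoting complex, read -2.30, -2.12 and -2.37, then -3.71, -4.01 and -4.10, then -4.57, -4.48 and -4.30 with ATRA and -4.65, -4.49 and -4.19 with 9cRA. BIRC5, which encodes survivin of the chromosomal passenger complex, read -2.84, -2.63 and -2.94, then -4.04, -4.36 and -4.18, then -4.66, -4.87 and -4.95 with ATRA and -4.97, -4.83 and -4.66 with 9cRA. For all 3 genes the drop from day 0 to day 6 was larger than the drop from day 6 control to retinoid. In culture KIF20A fell by 1.91 ± 0.13, UBE2C fell by 1.68 ± 0.14 and BIRC5 fell by 1.39 ± 0.12 (adjusted p = 3.9e-07, 2e-06 and 2.8e-06). With ATRA the further falls were 0.40 ± 0.13 for KIF20A, 0.51 ± 0.14 for UBE2C and 0.64 ± 0.12 for BIRC5 (adjusted p = 0.024, 0.012 and 0.0014). With 9cRA they were 0.40 ± 0.13, 0.50 ± 0.14 and 0.63 ± 0.12 (adjusted p = 0.025, 0.013 and 0.0016). With the slide as a fixed block the 9cRA calls of KIF20A (-0.62), UBE2C (-0.61) and BIRC5 (-0.37) were lost, and under normexp those of KIF20A with both retinoids (-0.11 and -0.09) and UBE2C with ATRA (-0.23). The KIF20A retinoid calls were also lost without day 6 control array 1 or 3 (-0.36 to -0.31), without ATRA array 2 (-0.30) and without 9cRA array 1 or 3 (-0.36 and -0.37).

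In other mitosis genes the retinoid step was closer in size to the culture step, and in PRC1 it was the larger with both retinoids. PRC1, which bundles the microtubules of the central spindle, read 0.62, 0.62 and 0.59 at day 0, -0.05, -0.02 and 0.02 in the day 6 controls, -1.04, -1.14 and -1.06 with ATRA and -1.13, -1.03 and -0.93 with 9cRA. MAD2L1, of the spindle checkpoint, read -1.65, -1.58 and -1.66, then -2.32, -2.49 and -2.56, then -3.33, -3.41 and -3.43 with ATRA and -3.44, -3.24 and -3.16 with 9cRA. CKS2, a small CDK-binding protein, read -0.60, -0.47 and -0.52, then -1.13, -1.48 and -1.53, then -2.33, -2.09 and -2.15 with ATRA and -2.0, -1.94 and -1.92 with 9cRA. Each gene gave 3 levels with no overlap between day 0, day 6 control and retinoid arrays. PRC1 fell by 0.63 ± 0.05 in culture, then fell by 1.06 ± 0.05 with ATRA and fell by 1.01 ± 0.05 with 9cRA (adjusted p = 3.4e-06, 1.3e-07 and 1.9e-07). MAD2L1 fell by 0.83 ± 0.08, then 0.93 ± 0.08 and 0.82 ± 0.08 (adjusted p = 8.7e-06, 6.5e-06 and 1.8e-05), and CKS2 by 0.85 ± 0.10, then 0.81 ± 0.10 and 0.57 ± 0.10 (adjusted p = 3.9e-05, 9.9e-05 and 0.0011). NUSAP1, a spindle-associated protein, read -1.88, -1.89 and -2.09, then -3.16, -3.05 and -3.04, then -3.67, -3.84 and -3.75 with ATRA and -4.05, -3.73 and -3.67 with 9cRA. Its falls were 1.13 ± 0.10, 0.67 ± 0.10 and 0.73 ± 0.10 (adjusted p = 3.9e-06, 0.00035 and 0.0002), but as a mean over its 2 probes the retinoid falls (-0.34 and -0.77) were not called.

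Other mitosis genes among those tested fell in culture too, some with lower precision. KIF11 was not among these, as its shown probe was too dim to test. KIF11, a kinesin that pushes the spindle poles apart, had 1 tested probe of 4, which read -5.76, -5.57 and -5.77 at day 0 and was not well above background on any later array, where it read -8.21 to -6.36. Its day 0 signal was itself dim. That probe passed the filter through the day 0 arrays alone, so a fall from day 0 was favoured by its choice. On it the signal was at least 1.05-fold lower in the day 6 control and at least 1.09-fold lower with ATRA than at day 0. No bound could be given with 9cRA. The shown KIF11 probe read -5.26, -7.51 and -8.27 with ATRA, against a day 0 mean of -5.73. Another KIF11 probe, too dim to test, read -3.50 on ATRA array 3. BUB1, a checkpoint kinase, fell by 1.12 ± 0.11 in culture (adjusted p = 9.8e-06) and was not well above background on any retinoid array, so it was at least 2.91-fold lower with ATRA and at least 2.81-fold lower with 9cRA than at day 0. Its relative BUB1B fell by 0.66 ± 0.09 in culture (adjusted p = 0.00011), and by a further 0.34 ± 0.09 with ATRA and 0.39 ± 0.09 with 9cRA (adjusted p = 0.012 and 0.0058). The BUB1B call with ATRA was lost within slide 2 (-0.33) and that with 9cRA with the slide as a fixed block (-0.48). KIF23, a kinesin of the central spindle, fell by 0.46 ± 0.12 in culture (adjusted p = 0.0065) and by 0.63 ± 0.12 with 9cRA (adjusted p = 0.0016), both lost with the slide as a fixed block (-0.28 and -0.59). The other KIF23 probes fell in culture, by 0.76 and 0.62, and were not called with 9cRA (-0.08 and -0.04). AURKA, a kinase of the spindle poles, fell by 1.62 ± 0.19 in culture (adjusted p = 2.5e-05). The AURKA retinoid falls (0.61 ± 0.19 and 0.56 ± 0.19) lost their call when 1 array was left out, among them 9cRA array 1 (-0.57) or 2 (-0.43), ATRA array 2 (-0.55) or 3 (-0.61) and day 6 control array 3 (-0.34 with 9cRA). CDC20, the activator of the anaphase-promoting complex, was the least precise: it read -2.95, -2.88 and -3.07 at day 0, -5.44, -4.93 and -5.46 in the day 6 controls, -5.30, -5.65 and -4.82 with ATRA and -6.12, -3.14 and -5.40 with 9cRA. Its 9cRA array 2 stood near the day 0 level while the other two did not, and the call of CDC20 in culture (-2.31 ± 0.60, adjusted p = 0.0068) was lost with the slide as a fixed block (-2.48).

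PLK1 was the mitosis gene whose level did not pass the test in any comparison. It read 0.41, 0.27 and 0.35 at day 0, 0.42, 0.49 and 0.77 in the day 6 controls, 0.38, 0.57 and 0.63 with ATRA and 0.67, 0.47 and 0.21 with 9cRA. The difference in culture was 0.22 ± 0.13, with a 95% interval from -0.07 to 0.50, which leaves out a fall of the size seen for the other mitosis genes called. The set holds 1 PLK1 probe, on chr25:21597552-21597611.

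**Figure D3:**
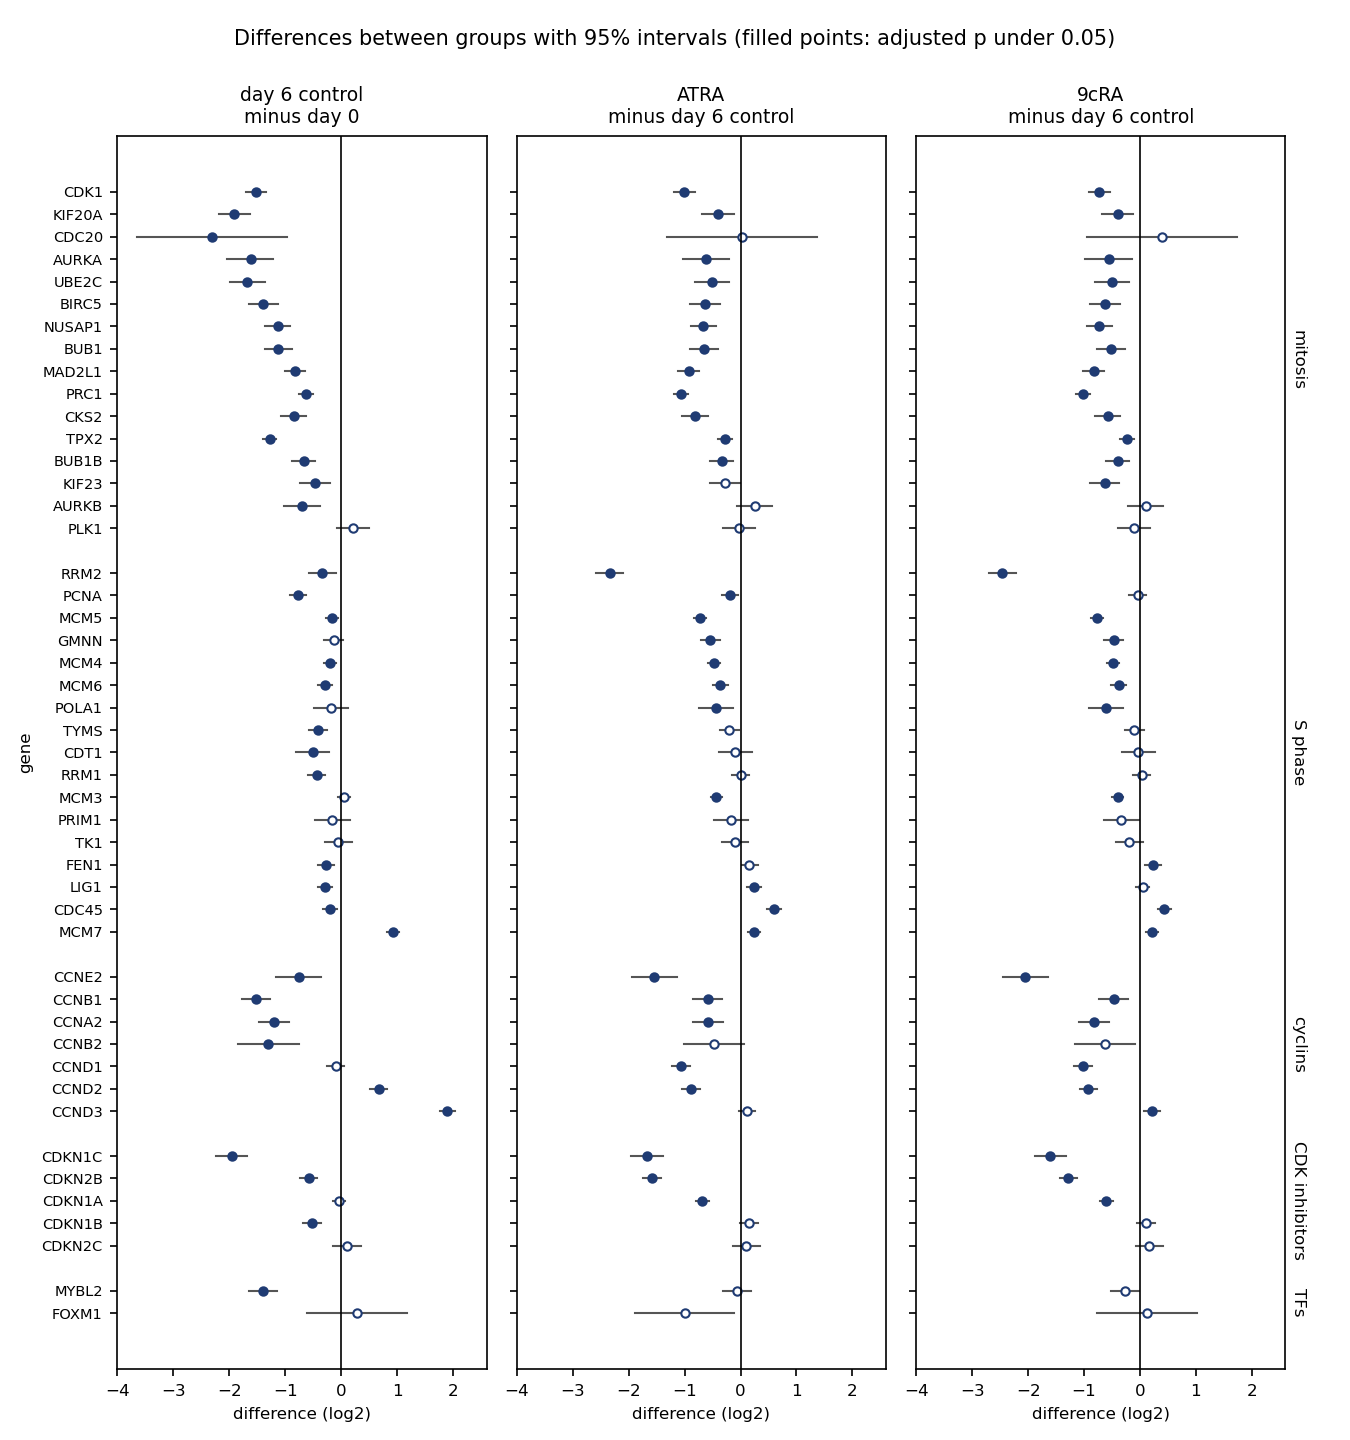
Points are differences in log2 signal for the 47 members in 3 comparisons, bars are 95% intervals, and filled points have an adjusted p under 0.05. Mitosis genes are shifted furthest left in culture (median -1.13), RRM2 stands out on the left with both retinoids (-2.34 and -2.46), and MCM7, CCND2 and CCND3 are on the right in culture.

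S phase genes changed less in culture, and 1 of them more than any other member with the retinoids. RRM2, the regulated subunit of ribonucleotide reductase, which makes the building blocks of DNA, read -1.54, -1.43 and -1.65 at day 0, -2.05, -1.82 and -1.78 in the day 6 controls, -4.21, -4.40 and -4.04 with ATRA and -4.36, -4.22 and -4.44 with 9cRA. All 6 retinoid arrays lay more than 1 unit below every other array. RRM2 fell by 2.34 ± 0.11, or 5.05-fold, with ATRA (adjusted p = 5.6e-08) and by 2.46 ± 0.11, or 5.50-fold, with 9cRA (adjusted p = 4.4e-08). The culture step was small (-0.34 ± 0.11, adjusted p = 0.018) and lost its call without day 0 array 2 (-0.29) or day 6 control array 1 (-0.26). The other RRM2 probes went the same way: A_73_117177 differed by -1.23 in culture, and then by -2.26 with ATRA and -1.95 with 9cRA. A_73_P269401, the probe printed above, was not well above background on any retinoid array, and RRM2 was by it at least 2.30-fold lower with ATRA and at least 2.06-fold lower with 9cRA than in the day 6 control.

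The large subunit gene RRM1 did not follow RRM2. It read 3.21, 3.24 and 3.31 at day 0, 2.96, 2.80 and 2.69 in the day 6 controls, 2.83, 2.77 and 2.85 with ATRA and 2.79, 2.91 and 2.84 with 9cRA. RRM1 fell by 0.44 ± 0.07 in culture (adjusted p = 0.00024), and its retinoid arrays overlapped the day 6 control (0.00 ± 0.07 and 0.03 ± 0.07, adjusted p = 0.99 and 0.72). PCNA, the sliding clamp of the replication fork, read 1.14, 1.18 and 1.14, then 0.50, 0.34 and 0.31, then 0.21, 0.21 and 0.16 with ATRA and 0.27, 0.29 and 0.46 with 9cRA. TYMS, which makes thymidylate, read 3.05, 3.04 and 3.04, then 2.74, 2.64 and 2.50, then 2.53, 2.29 and 2.47 with ATRA and 2.56, 2.57 and 2.46 with 9cRA. For both the day 0 arrays stood apart above the rest. PCNA fell by 0.77 ± 0.06 and TYMS by 0.41 ± 0.07 in culture (adjusted p = 2.5e-06 and 0.00067). The further PCNA difference with ATRA (-0.19 ± 0.06, adjusted p = 0.037) lost its call when any 1 ATRA array or day 6 control array 1 was left out (-0.20 to -0.13), and its other probes differed by -0.12 and -0.08.

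The MCM genes encode subunits of the helicase that opens DNA at replication origins. Of the 5 tested 1 rose in culture, where 31.1% of all genes did. MCM7 read 1.01, 1.07 and 0.93 at day 0, 1.92, 1.91 and 1.97 in the day 6 controls, 2.13, 2.22 and 2.17 with ATRA and 2.13, 2.11 and 2.19 with 9cRA. Every day 6 array lay above every day 0 array, a rise of 0.93 ± 0.05 in culture (adjusted p = 8.1e-08). The MCM7 probe printed above, a second one, rose by 0.55 in culture (adjusted p = 0.0053) and differed by 0.03 and 0.05 with the retinoids. The further retinoid rises of the brighter MCM7 probe (0.24 ± 0.05 and 0.21 ± 0.05, adjusted p = 0.0027 and 0.0066) were lost as a mean over both probes (0.13 and 0.13), and that with 9cRA also under array median scaling (0.15) and with the slide as a fixed block (0.20).

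MCM5 read 0.37, 0.37 and 0.28 at day 0, 0.21, 0.21 and 0.14 in the day 6 controls, -0.53, -0.61 and -0.47 with ATRA and -0.58, -0.59 and -0.58 with 9cRA. MCM4 read 0.60, 0.64 and 0.54, then 0.40, 0.39 and 0.41, then 0.00, -0.06 and -0.15 with ATRA and -0.12, -0.05 and -0.08 with 9cRA. The retinoid arrays of both genes lay below all control arrays. MCM5 fell by 0.72 ± 0.05 with ATRA and 0.77 ± 0.05 with 9cRA (adjusted p = 9.8e-07 and 6.5e-07), and MCM4 by 0.47 ± 0.05 and 0.48 ± 0.05 (adjusted p = 2.8e-05 and 2.5e-05). Culture alone gave -0.16 ± 0.05 for MCM5 (adjusted p = 0.017), lost without day 0 array 1 or 2 (-0.14) or day 6 control array 3 (-0.13), and -0.20 ± 0.05 for MCM4 (adjusted p = 0.0059). MCM6 fell in all 3 comparisons, by 0.29 ± 0.06 in culture, 0.36 ± 0.06 with ATRA and 0.38 ± 0.06 with 9cRA (adjusted p = 0.0015, 0.00058 and 0.00046). With the slide as a fixed block MCM6 lost its call in culture (-0.19) and with 9cRA (-0.32). The brightest probe named MCM3, which the files place on another chromosome than the other MCM3 probes and which may not measure that gene, read 0.85, 0.76 and 0.77, then 0.87, 0.88 and 0.79, then 0.45, 0.41 and 0.39 with ATRA and 0.46, 0.43 and 0.45 with 9cRA, with falls of 0.43 ± 0.05 and 0.40 ± 0.05 (adjusted p = 2.5e-05 and 4.5e-05).

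Other genes of the fork fell in culture and rose with 1 or both retinoids. CDC45, a partner of the MCM helicase, read -0.88, -1.0 and -0.95 at day 0, -1.18, -1.10 and -1.16 in the day 6 controls, -0.57, -0.48 and -0.59 with ATRA and -0.72, -0.77 and -0.65 with 9cRA. LIG1, the ligase that joins the new fragments, read 1.61, 1.66 and 1.55, then 1.29, 1.33 and 1.32, then 1.58, 1.55 and 1.53 with ATRA and 1.29, 1.34 and 1.46 with 9cRA. FEN1, the nuclease that trims those fragments, read 0.21, 0.14 and 0.09, then -0.06, -0.13 and -0.18, then 0.08, 0.09 and -0.05 with ATRA and 0.01, 0.14 and 0.19 with 9cRA. All 3 fell in culture, by 0.20 ± 0.05, 0.29 ± 0.05 and 0.27 ± 0.06 (adjusted p = 0.0072, 0.00082 and 0.0041 for CDC45, LIG1 and FEN1). Within slide 1 the calls of CDC45 (-0.24) and FEN1 (-0.20) in culture were lost, that of FEN1 also with the slide as a fixed block (-0.20). CDC45 then rose by 0.60 ± 0.05 with ATRA and 0.43 ± 0.05 with 9cRA (adjusted p = 6.9e-06 and 8.1e-05), where its other probe was not called (0.28 and 0.29). LIG1 rose by 0.24 ± 0.05 with ATRA (adjusted p = 0.0045), where the slide 2 arrays alone (0.24), array median scaling (0.18) and the mean over its 4 probes (0.14) gave no call. FEN1 rose by 0.24 ± 0.06 with 9cRA (adjusted p = 0.012), lost under array median scaling (0.18).

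Of the licensing genes, CDT1, which loads the helicase, fell by 0.51 ± 0.13 in culture (adjusted p = 0.0061). Its inhibitor geminin, GMNN, read 0.38, 0.54 and 0.47 at day 0, 0.41, 0.30 and 0.28 in the day 6 controls, -0.07, -0.24 and -0.31 with ATRA and -0.23, -0.13 and -0.04 with 9cRA. GMNN overlapped between day 0 and day 6 (-0.13 ± 0.08, adjusted p = 0.16) and fell by 0.54 ± 0.08 with ATRA and 0.47 ± 0.08 with 9cRA (adjusted p = 0.00023 and 0.00062), the latter lost with the slide as a fixed block (-0.27). POLA1, of the polymerase that starts new strands, differed by -0.44 ± 0.13 and -0.61 ± 0.13 with the retinoids (adjusted p = 0.022 and 0.0039). The POLA1 call with ATRA was lost without day 6 control array 1 (-0.31) or ATRA array 1 (-0.40) or 3 (-0.45). TK1, of thymidine salvage, depended on the probe. The brighter TK1 probe was not called in any comparison (-0.05 ± 0.11 in culture, adjusted p = 0.73). The other, A_73_P382521, read -2.78, -2.62 and -2.80 at day 0, -2.88, -3.22 and -3.16 in the day 6 controls, -3.70, -3.87 and -3.64 with ATRA and -3.78, -3.57 and -3.60 with 9cRA. On that probe TK1 fell by 0.35 ± 0.10 in culture and fell by 0.65 ± 0.10 with ATRA and 0.57 ± 0.10 with 9cRA (adjusted p = 0.014, 0.00056 and 0.0015 over all probes). PRIM1, the primase subunit, was called only with 9cRA against day 0 (-0.49 ± 0.14, adjusted p = 0.0087), lost under normexp (-0.13) and with the fixed slide block (-0.77).

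Among the transcription factors, MYBL2, which activates mitosis genes, read -0.44, -0.35 and -0.44 at day 0, -1.93, -1.71 and -1.76 in the day 6 controls, -2.11, -1.77 and -1.70 with ATRA and -2.06, -2.22 and -1.93 with 9cRA. MYBL2 fell by 1.39 ± 0.11 in culture (adjusted p = 2e-06), and the retinoid arrays overlapped the day 6 control (-0.06 ± 0.11 and -0.27 ± 0.11, adjusted p = 0.70 and 0.078). FOXM1, the other mitosis activator, read -5.57, -5.25 and -5.55, then -4.81, -5.65 and -5.07, then -6.30, -5.82 and -6.42 with ATRA and -4.04, -5.25 and -5.86 with 9cRA. Its signal lay close to background, was not well above it on any ATRA array, and passed no test (0.28 ± 0.40 in culture, adjusted p = 0.56). E2F1, the S phase activator, was not tested on its shown probe, which read -5.05, -6.25 and -5.54, then -6.17, -4.72 and -5.74, then -4.16, -6.12 and -4.97 with ATRA and -4.58, -5.36 and -5.63 with 9cRA. A second E2F1 probe, A_73_106618, read -4.07, -4.12 and -4.14, then -5.14, -4.76 and -4.66, then -7.65, -6.79 and -6.96 with ATRA and -6.09, -7.81 and -7.69 with 9cRA. On it E2F1 was not well above background on any retinoid array and so at least 1.97-fold lower with ATRA and at least 1.76-fold lower with 9cRA than in the day 6 control. The adjusted p over all probes (0.00098 and 0.00085) came from readings not well above background (-2.28 and -2.35), not from these bounds. That probe passed the filter through the day 0 arrays alone. The remaining E2F1 probe, A_73_P406076, was not called in culture or with either retinoid against the day 6 control (-0.14, -0.14 and -0.11).

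The probes of a gene did not always move together. Of 95 member probes tested on their own, 66 were lower and 7 higher in culture, where 33.1% and 28.6% of all probes were, and 30 genes had more than 1 tested probe. With ATRA 47 fell and 4 rose against the day 6 control (21.5% and 21.9% of all probes), and with 9cRA 48 fell and 6 rose (20.9% and 22.7%). Between the retinoids 0 rose and 0 fell (0.0993% and 0.0513% of all probes). The AURKB probe with the brightest mean, A_73_113296, fell by 0.70 ± 0.14 in culture (adjusted p = 0.0016). The AURKB probe A_73_P270306, not well above background after day 0, was at least 1.84-fold lower in the day 6 control. A_73_P041381 differed by -2.79 in culture (adjusted p = 8.4e-05). It read -2.51, -2.46 and -2.46 at day 0, -5.45, -5.29 and -5.05 in the day 6 controls, -6.10, -5.08 and -7.02 with ATRA and -5.90, -6.20 and -6.38 with 9cRA, at least 9.15-fold lower with 9cRA than at day 0. AURKB, the kinase of the chromosomal passenger complex, was lower in culture on each of these probes.

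For the helicase genes MCM3 and MCM4 the probes disagreed in direction. The MCM3 probe described above lies at chr9:88639771-88639830 in the files, while its 3 other probes lie on chr23. Of these, A_73_P399416 was lower in culture (-0.30, adjusted p = 0.048) and A_73_105887 higher (0.34, adjusted p = 0.029), so no direction is given for MCM3 in culture. With the retinoids the 3 tested MCM3 probes stood at -0.56 to -0.20 for ATRA and -0.72 to -0.11 for 9cRA. Of 5 MCM4 probes, the printed one (A_73_P072841) read -2.57, -2.39 and -2.72 at day 0, -2.91, -2.33 and -2.40 in the day 6 controls, -2.46, -2.20 and -1.83 with ATRA and -2.08, -1.78 and -1.75 with 9cRA. It rose by 0.67 with 9cRA (adjusted p = 0.015), where the other 4 MCM4 probes fell by 0.30 to 0.59.

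**Figure D4:**
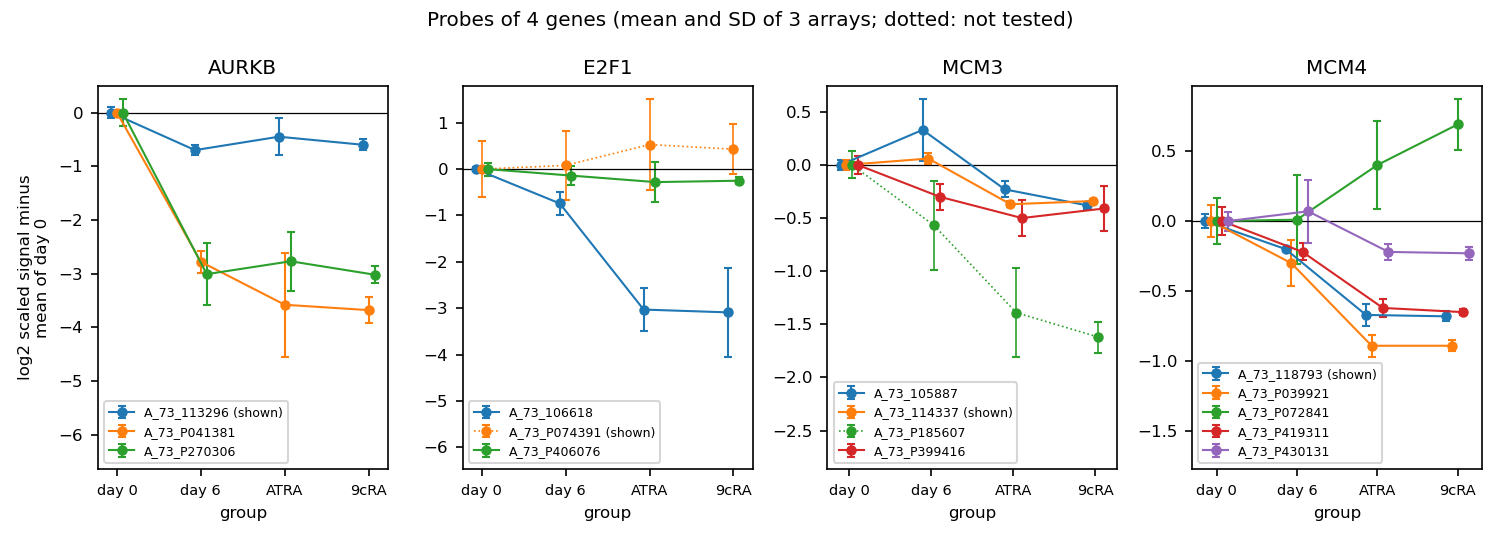
Each line is 1 probe of AURKB, E2F1, MCM3 or MCM4, drawn as the mean log2 signal of 3 arrays minus its day 0 mean with the SD as bars; dotted lines are probes too dim to test and "shown" marks the probe that stands for the gene elsewhere. The AURKB probes part from day 6 on, where A_73_P270306 is at background, 1 E2F1 probe drops with the retinoids while the shown one does not, and 1 MCM4 probe climbs while 4 go down.

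The retinoids were compared directly at the same dose and day, as 1 pair. None of the 47 members was called higher or lower between ATRA and 9cRA (0.119% of all genes called, 0.0621% higher and 0.0565% lower), and 8 had an unadjusted p under 0.05, where 10.5% of all genes did. For 42 members the 95% interval of the difference lay within 1.5-fold either way, and for CCNE2, KIF23, CCNB2, CDC20 and FOXM1 it reached further. The smallest adjusted p was that of CDKN2B, which was 0.31 ± 0.07 lower with ATRA than with 9cRA (interval -0.46 to -0.16, adjusted p = 0.16), with all 3 ATRA arrays below all 3 9cRA arrays. CDK1 differed by -0.28 ± 0.08 (-0.46 to -0.10, adjusted p = 0.27) and LIG1 by 0.19 ± 0.05 (0.07 to 0.31, adjusted p = 0.25). Under normexp background correction 1 member was called lower with ATRA. A missed threshold does not show that the compounds act alike, and ATRA array 3 was the only ATRA array on the slide of the 9cRA arrays.

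**Figure D5:**
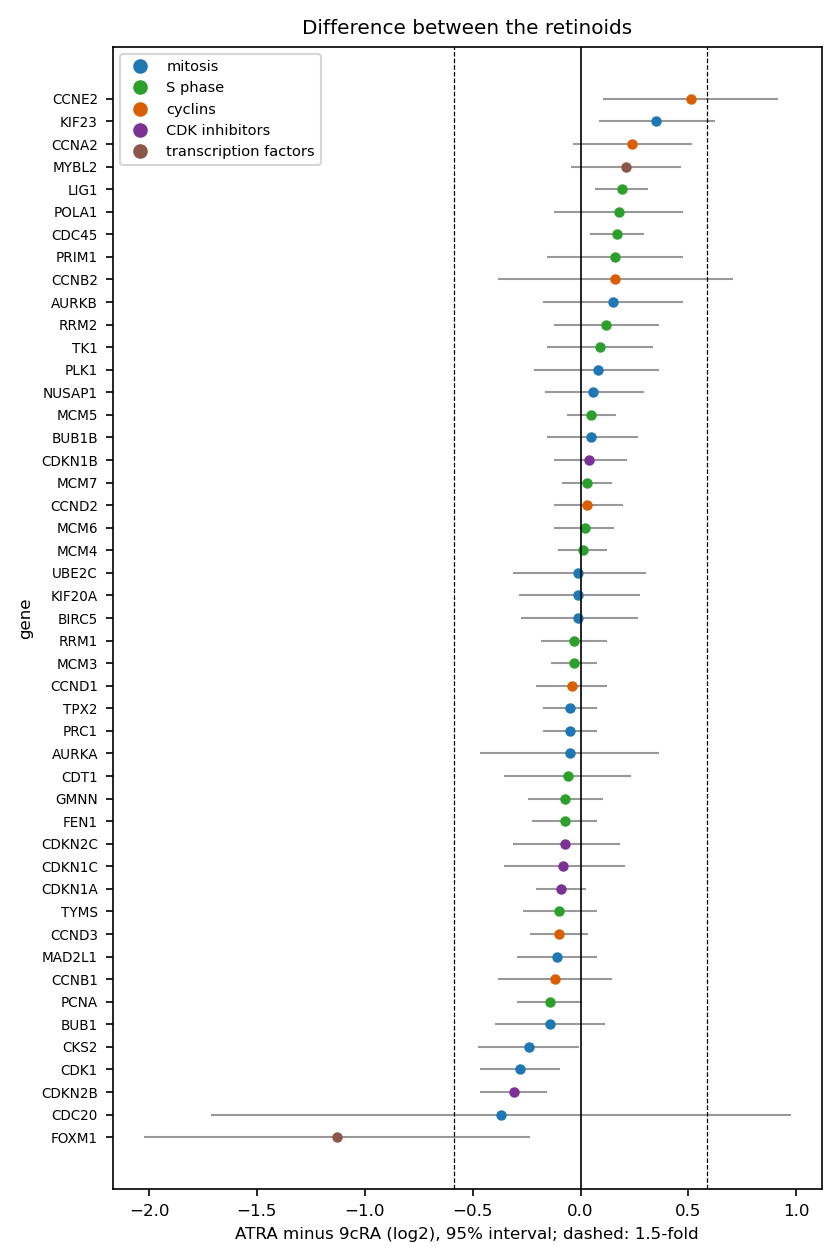
Points give ATRA minus 9cRA in log2 signal for the 47 members, coloured by subgroup and sorted, bars are 95% intervals, and dashed lines mark 1.5-fold. Most points lie close to 0 with a median of -0.01, and the widest bars belong to CDC20 and FOXM1.

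Other genes of the same pathways, 101 of them tested from a list of 121, went down less uniformly. In culture 40 were lower, 26 higher and 35 not called, with a median of -0.19, which is 39.6% lower and 25.7% higher against 31.3% and 31.1% of all genes. With ATRA 41.6% were lower and 12.9% higher (22.4% and 23.8% of all genes), and with 9cRA 42.6% and 12.9% (21.7% and 24.7%). Genes of the kinetochore, spindle and cytokinesis were nearest to the mitosis members, with 20 of 36 lower and 6 higher in culture, or 55.6% and 16.7% (median -0.54). The cell division gene CDCA3 fell by 1.94 ± 0.08 (adjusted p = 1.6e-08) and the kinetochore gene NUF2 by 1.18 ± 0.09 (adjusted p = 1.8e-06). NCAPG, a condensin subunit, rose by 0.95 ± 0.07 in culture and then fell by 1.06 ± 0.07 with ATRA and 1.10 ± 0.07 with 9cRA (adjusted p = 1.4e-06, 1.2e-06 and 9.8e-07). The cytokinesis gene ECT2 fell by 1.04 ± 0.09 with ATRA and 0.92 ± 0.09 with 9cRA (adjusted p = 5.2e-06 and 1.4e-05), and the kinesin KIF4A, dim on all retinoid arrays, was at least 2.15-fold and at least 1.96-fold lower.

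Of 28 genes of origin licensing and the replication fork 7 were lower and 8 higher in culture, or 25% and 28.6%, near the 31.3% and 31.1% of all genes. DBF4, the activating subunit of the CDC7 kinase, fell by 1.51 ± 0.08 (adjusted p = 1.1e-07) while CDC7 itself rose by 0.63 ± 0.04 (adjusted p = 4.9e-07), as did POLD3 by 0.65 ± 0.04 (adjusted p = 4.4e-07). With each retinoid 10 of the 28 fell against the day 6 control, or 35.7%. Of all genes 22.4% fell with ATRA and 21.7% with 9cRA. Only 2 of the 28 were higher with ATRA and 3 with 9cRA, where 23.8% and 24.7% of all genes were. UHRF1, which maintains DNA methylation at the fork, fell by 2.00 ± 0.10 with ATRA and 1.72 ± 0.10 with 9cRA (adjusted p = 1e-07 and 3.3e-07). CDC7 fell by 0.41 ± 0.04 and 0.45 ± 0.04 (adjusted p = 2.2e-05 and 1.2e-05), ORC6 of the origin complex by 0.57 ± 0.07 with ATRA (adjusted p = 9.6e-05) and MCM10 by 0.77 ± 0.08 with 9cRA (adjusted p = 1.8e-05). Both ORC6 and MCM10 were called lower with each retinoid.

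Among 13 further CDKs, cyclins and inhibitors, 6 were lower and 4 higher in culture, or 46.2% and 30.8% against 31.3% and 31.1% of all genes. CDK4, the partner of the D cyclins, fell by 0.99 ± 0.09 (adjusted p = 6.1e-06) and CDKN3, a CDK phosphatase, by 0.86 ± 0.10 (adjusted p = 4.2e-05), whereas CCNE1 rose by 0.90 ± 0.08 (adjusted p = 5.5e-06). With the retinoids CDK6 fell by 0.81 ± 0.07 and 0.84 ± 0.07 (adjusted p = 6.6e-06 and 5.7e-06), CDKN3 by 0.72 ± 0.10 and 0.81 ± 0.10, and CCNE1 by 0.48 ± 0.08 with ATRA (adjusted p = 0.00092). The p19 inhibitor gene CDKN2D rose by 0.81 ± 0.12 with 9cRA (adjusted p = 0.00029). With each retinoid CCNE1 was called lower and CDKN2D higher. Of 11 CDC25 and checkpoint genes, 6 fell (54.5%) and 4 rose (36.4%) in culture, where 31.3% and 31.1% of all genes did. CDC25B, a phosphatase that activates CDK1, fell by 1.65 ± 0.11 and its relative CDC25C by 1.41 ± 0.18, while MDM2, the ligase that removes p53, rose by 1.47 ± 0.09 (adjusted p = 5.4e-07, 5.7e-05 and 1.5e-07). CDC25B fell further with both retinoids, by 1.08 ± 0.11 and 1.22 ± 0.11 (adjusted p = 2.6e-05 and 1.1e-05), as did the checkpoint kinase CHEK1, by 0.69 ± 0.08 and 0.65 ± 0.08. MDM2 fell by 0.58 ± 0.09 with 9cRA (adjusted p = 0.0003) and was called lower with ATRA too.

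The RB, E2F and DREAM genes, which control when S phase and mitosis genes are read, numbered 13, of which 4 were higher, 1 was lower and 8 were not called in culture. The share higher, 30.8%, is near that of all genes (31.1%), and 7.69% were lower against 31.3%. TFDP2 and TFDP1, dimer partners of the E2F factors, rose by 0.86 ± 0.08 and 0.46 ± 0.05, and E2F5, a repressor of the family, by 0.38 ± 0.05 (adjusted p = 7.2e-06, 1.7e-05 and 0.00011). The repressor E2F6 rose by 0.28 ± 0.05 with ATRA and 0.26 ± 0.05 with 9cRA (adjusted p = 0.0016 and 0.0031), TFDP2 by a further 0.32 ± 0.08 and 0.26 ± 0.08, and RBBP4 by 0.21 ± 0.06 with 9cRA, while LIN52 of the DREAM complex fell by 0.30 ± 0.08 with ATRA (adjusted p = 0.0089). RBBP4 was called higher and LIN52 lower with both retinoids. None of the 101 genes was called between ATRA and 9cRA.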

How the data were processed

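RNA of 4 groups was measured on 12 one-colour bovine arrays, 3 per group, all in 1 sample per group. Per the file headers, each file holds spot intensity on a linear scale, as deposited by the authors from Feature Extraction 10.7.3.1. The processed signal was taken to log2, the array's 75th percentile over probes subtracted, 191 outlier spots of 525636 left out and spots of a probe averaged. A gene is a name in the files, on UMD3.1, shown by its probe with the highest mean, and it was tested if some group had that probe well above background on each of its 3 arrays. A model of the group means, in limma 3.58.1 under R 4.3.3, took in all 12 arrays (lmFit, eBayes, two-sided), after a test on simulated data, with Benjamini-Hochberg adjustment per comparison. Values after ± are standard errors. For a bound, each array of the dim group was given the dimmest signal that still counted as well above background there, or the probe's own if higher, and the fold is the difference between the brighter group's mean log2 value and the mean of these.

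The authors also deposited log2 values, 1 column per group. Set against the arrays, they are group means of the same scaled values, centred on each probe's median, with the same direction (r 0.935 to 0.992, column medians 0.01, -0.01, 0.01 and 0.02 for day 0, day 6 control, ATRA and 9cRA). They served as an alternative. The number of arrays limits the precision. Values were given for all cyclins, inhibitors and factors, and in mitosis and S phase for the 5 genes with the smallest adjusted p in each of 3 comparisons and those called against their subgroup, plus the 3 smallest between the retinoids, and for up to 3 genes per comparison in each list of other pathway genes; other members named with values (KIF23, AURKA, BUB1, BUB1B, CDC20, PLK1, CDT1, GMNN, POLA1, TK1, PRIM1, MCM6) were chosen after their values were seen. The members and lists were chosen with earlier results of these data known. A RefSeq table of ARS-UCD2.0 was used for names in 1 alternative, where 26743 of 43653 probes matched by accession.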

Additional observations from a re-analysis of the deposited data

How the results depend on the processing

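Of 183 member results that were called, 127 kept their direction and call under every alternative, 56 lost the call under at least 1, and 0 reversed. Leaving out 1 array at a time gave 3 higher and 32 to 34 lower members in culture, 3 to 4 and 25 to 30 with ATRA, 4 and 26 to 28 with 9cRA, 3 and 35 to 37 for ATRA against day 0, 3 to 4 and 38 to 39 for 9cRA against day 0, and 0 and 0 between the retinoids. Counting genes with any probe called, 5 members rather than 3 were higher in culture. Members higher with ATRA than in the day 6 control numbered 5 under cyclic loess, 1 as a mean over probes and 1 within slide 2. Those higher with 9cRA numbered 1 under array median scaling and 2 with the slide as a fixed block, and against day 0 they numbered 2 and 2. Normexp correction called 1 member lower with ATRA than with 9cRA and moved the members' median to -0.18 with ATRA and -0.23 with 9cRA against the day 6 control; the cause was not tested. Array median scaling moved the median of all genes from 0.06 to -0.07 for ATRA and from 0.07 to -0.06 for 9cRA against day 0. The fits within a slide were chosen after seeing the data. The planned search of promoters for motifs was not run. No paired analysis was possible because each group is 1 sample with no shared replicate number. Dim probes with only bounds, and 3 arrays per group, limit what low-signal members can show. Some probes passed the filter through the day 0 arrays alone, which favours falls from day 0. Among them are tested probes of KIF11, CCNE2, BUB1, CDC20 and E2F1.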
